A study of Mus musculus with 14 samples.

Results

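The nuclear genes for mitochondrial protein import, folding and proteolysis were described in heart muscle cells after a viral guide RNA against Ryr2, which encodes the cardiac ryanodine receptor, the calcium release channel of the sarcoplasmic reticulum. Members were all genes whose symbol begins with Tomm or Timm and a digit, together with 20 named genes for matrix chaperones, proteases, the presequence peptidase and the prohibitins, with a summed count of at least 100 over 14 libraries. The rule matched 42 symbols, and 40 of the 23337 genes in the count table were kept. Tomm20l (summed count 4) and Timm8a2 (0) were left out, and the lowest genes kept were Timm8a1 (451) and Tomm6 (1602). All 40 passed the filter on low counts of the fit across all genes.

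The KO libraries (n = 7) came from Rosa-Cas9GFP mice given AAV-Ryr2gRNA on postnatal day 1, and the Ctrl libraries (n = 7) from Rosa-Cas9GFP mice given AAV-Cre on the same day. Both groups therefore carried the Cas9 and GFP allele, and both were 4 weeks old when cardiomyocytes were isolated by Langendorff perfusion and sorted by flow cytometry. Adeno-associated virus is a delivery vector. The sources used here do not give the promoters or say whether the guide virus also held Cre, so guide and vector cannot be told apart. Nothing in the labels ties the replicates to separate animals, and a p-value here covers only the spread among these libraries, part of which may be technical. Polyadenylated RNA was sequenced with SMART-Seq v4, a full-length cDNA method.

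Library totals were 5689335 to 11064715 counts in KO and 6313220 to 13165662 in Ctrl, and the 40 genes held 0.622% to 0.714% of all counts in KO libraries and 0.622% to 0.673% in Ctrl libraries. Ryr2 itself reached 225 (lowest), 324 (median) and 371 (highest) CPM in KO, against 602, 649 and 763 CPM in Ctrl, where CPM is counts relative to the library total after TMM scaling. The groups did not overlap and KO kept 45.8% of the Ctrl mean (two-sided exact permutation p = 0.000583, the smallest that 3432 assignments allow). Summed cardiomyocyte markers were 81453 to 109246 CPM in KO and 101097 to 119977 CPM in Ctrl. Of these, 5 of 8 were called lower (Tnnt2, Tnni3, Pln, Actc1 and Myl2), while Myh6, Actn2 and Ttn were not called. Over all tested genes 14.5% were called higher and 13.7% lower. Summed macrophage markers were 26.5 to 208 CPM in KO and 11.4 to 61.3 CPM in Ctrl, with Emr1 and C1qb called higher of 6 tested. None of 6 tested fibroblast and none of 6 endothelial markers was called, and of 6 markers of pericytes and smooth muscle 1 was called higher (Cspg4) and 1 lower (Abcc9). Of the erythroid markers Hba-a1 had 0 counts in all libraries. The part of these markers in the results was not tested, and in bulk libraries fewer cells of a type and less RNA per cell cannot be told apart.

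Nearly all mitochondrial proteins are made in the cytosol and enter through the TOM complex of the outer membrane. Presequence proteins pass on through the TIM23 complex of the inner membrane, drawn in by a matrix motor built on mortalin, and are then trimmed, folded or degraded. In the mitochondrial unfolded protein response, described in worms and in mammalian cells, misfolded matrix protein is followed by more transcript of matrix chaperones and proteases, and heart muscle is unusually rich in mitochondria.

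The matrix protease Lonp1 was higher in KO, while 16 of the 40 import, folding and protease genes were lower by small amounts and 22 were not called. Of the 40 genes, 2 were called higher in KO (Lonp1 and Tomm34), where 14.5% of all 11170 tested genes were, and 16 were called lower, where 13.7% of all tested genes were. A call means an adjusted p under 0.05 in edgeR's quasi-likelihood test with Benjamini-Hochberg adjustment over all tested genes. As shares, 5% of the members were called higher and 40% lower, while 28.2% of all tested genes were called in either direction. Their median log2 fold change, KO minus Ctrl, was -0.16, beside 0.01 for all tested genes, and 33 of 40 values were negative. Genes outside the set with a mean level of 5 to 9 on the log2 CPM scale numbered 4331, of which 15.7% were called higher and 21.8% lower with a median of -0.04, while the 33 members in that range had 1 higher and 16 lower calls and a median of -0.21.

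How the libraries were scaled moved all of these values together. TMM factors were 0.997 to 1.11 in KO libraries and 0.910 to 1.01 in Ctrl libraries. With plain library totals, an alternative added after the data were seen, the median of all tested genes shifted to 0.15 and that of the members to -0.03. The members then lay 0.18 below all genes, as they did with TMM, but the split became 4 higher and 8 lower calls, against a background of 27.4% higher and 7.63% lower. The 2 further genes called higher under that scaling were Hspa9 and Yme1l1, and Timm17a, Timm23, Tomm22, Tomm40l, Pmpca, Phb, Phb2 and Afg3l2 lost their call. Changes are therefore best read relative to the median of all genes.

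**Figure D1:**
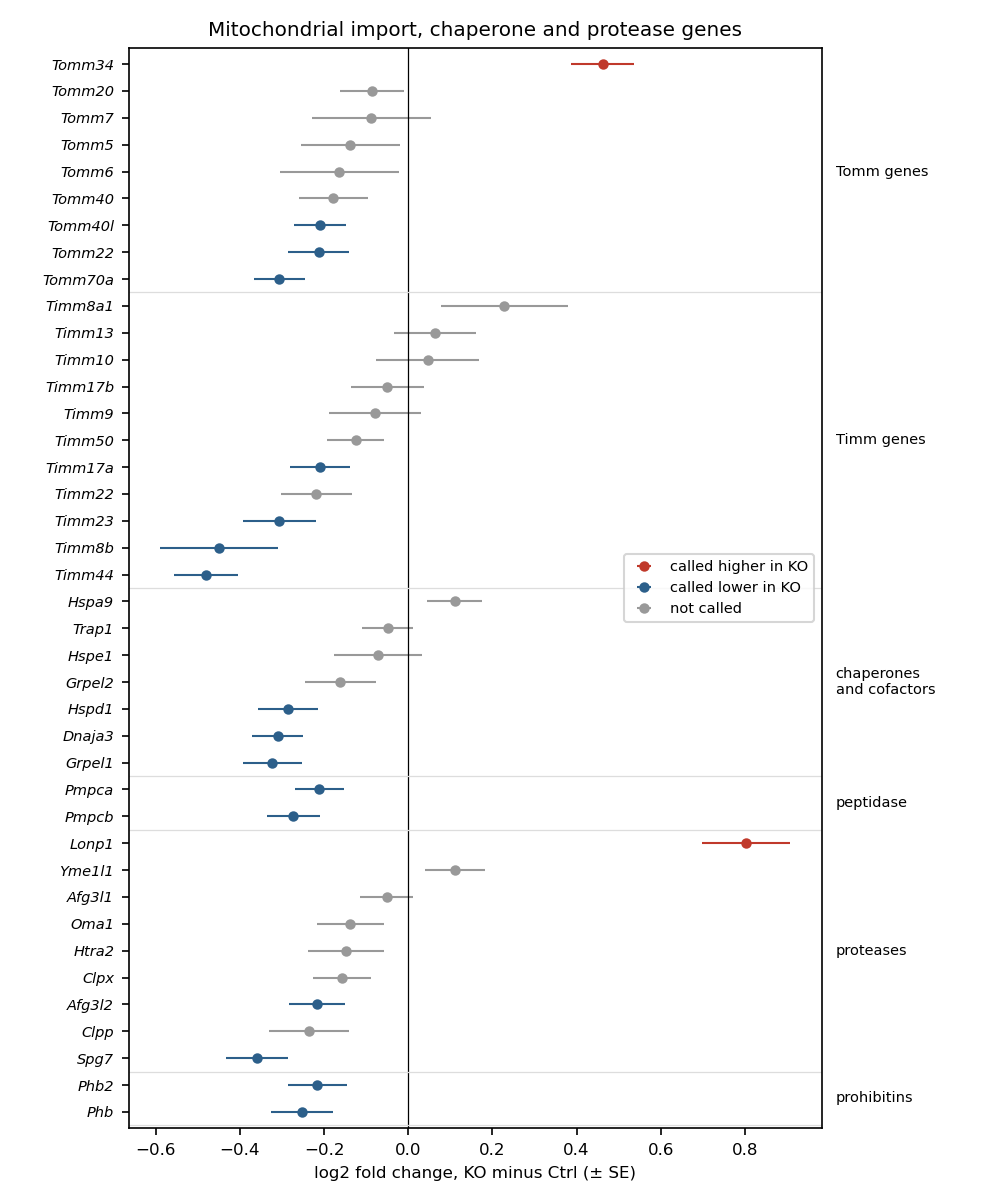
Log2 fold change, KO minus Ctrl, of the 40 genes by role (points, bars are ± SE derived from the edgeR F statistic on 7 KO and 7 Ctrl libraries). Lonp1 at 0.80 and Tomm34 at 0.46 stand to the right, and the 16 genes called lower lie between -0.48 and -0.21.

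In 6 genes no KO library overlapped any Ctrl library. Of these, 2 were higher in KO (Lonp1 and Tomm34), where 5.84% of all tested genes were, and 4 were lower (Timm44, Tomm70a, Dnaja3 and Pmpcb), where 4.71% were. Every library of Lonp1 and Tomm34 in KO was above the highest Ctrl library, and the next paragraphs take the genes in the order of the import route.

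Promoter sequences are shown for both genes that were higher and for the chaperonin pair Hspe1 and Hspd1, which start on opposite strands around one short stretch and whose ratio differed between the groups. RefSeq promoter windows, on GRCm38.p6, were found for 34 of the 40 genes; Tomm7, Tomm40l, Hspa9, Grpel2, Htra2 and Afg3l2 had none. Lonp1 is on the minus strand of chromosome 17, and its window of 250 bases before the gene start is chr17:56626904-56627153. Tomm34 is on the minus strand of chromosome 2, with the window chr2:164071103-164071352. The Hspe1 stretch, read on the plus strand, is the 215 bases between the Hspd1 and Hspe1 starts at chr1:55087933-55088147, and capitals mark a match to the core of a heat shock element at -84 to -77 from the Hspe1 start.
Lonp1: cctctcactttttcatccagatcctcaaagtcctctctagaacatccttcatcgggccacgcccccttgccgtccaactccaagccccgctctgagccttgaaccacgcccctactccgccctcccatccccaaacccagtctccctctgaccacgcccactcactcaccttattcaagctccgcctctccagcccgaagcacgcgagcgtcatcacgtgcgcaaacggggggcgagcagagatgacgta
Tomm34: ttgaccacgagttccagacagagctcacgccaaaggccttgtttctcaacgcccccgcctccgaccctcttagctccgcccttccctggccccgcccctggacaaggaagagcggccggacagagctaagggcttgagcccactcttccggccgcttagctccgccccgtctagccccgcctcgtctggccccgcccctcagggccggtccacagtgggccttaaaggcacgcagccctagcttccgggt
Hspe1: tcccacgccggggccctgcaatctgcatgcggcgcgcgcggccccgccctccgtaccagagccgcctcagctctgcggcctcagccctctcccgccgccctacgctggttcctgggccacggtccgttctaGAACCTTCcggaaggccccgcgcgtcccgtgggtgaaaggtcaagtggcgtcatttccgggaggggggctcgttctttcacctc

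The windows were searched on both strands for letters of 4 motifs. For each member only the window nearest its gene start was used. The shares over all promoters took every window, whatever its gene or level, so these sets are unlike and their difference was not tested. The heat shock element core GAANNTTC was present in 3 of the 34 member promoters (Timm9, Hspe1 and Hspd1, the last sharing its site with Hspe1) and in 6.69% of all 32851 promoters. TGATGNAA, letters bound by ATF4 with a C/EBP partner, was in 0 of 34 and in 3.45% of all promoters. Neither Lonp1 nor Tomm34 holds these letters in this window, and no other form of an ATF site was searched. The NRF1 motif of the nuclear respiratory factor was in 5 of 34 (Tomm20, Dnaja3, Afg3l1, Oma1 and Spg7) and in 3.74% of all, and the estrogen-related receptor letters TCAAGGTCA were in 1 (Timm8b) and in 0.387% of all. A match of letters is a description and not a bound site.

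The receptors of the TOM complex, which bind incoming proteins, were called lower or not called. Tomm70a, the receptor for carrier precursors (chr16:57121714-57154530 in mm10, plus strand), had 126 (lowest), 138 (median) and 156 (highest) CPM in KO, against 159, 171 and 196 CPM in Ctrl. All KO libraries were below all Ctrl libraries, with a log2 fold change of -0.31 (SE 0.0602, edgeR adjusted p = 0.00104). Tomm22, the central receptor, had 86.9, 97.9 and 112 CPM in KO, against 105, 115 and 140 CPM in Ctrl. Its groups overlapped, its log2 fold change was -0.21 (edgeR adjusted p = 0.0377), and it lost its call without any 1 of 9 libraries (KO replicates 1, 2, 4 and 5, Ctrl replicates 1, 3, 5, 6 and 7), with an adjusted p of up to 0.0927. Tomm20, the presequence receptor, had 27.3, 31.5 and 35.9 CPM in KO, against 29.6, 33.8 and 40.02 CPM in Ctrl, a log2 difference of -0.09 that was not called (edgeR adjusted p = 0.444).

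The import channel itself is encoded by Tomm40, which had 117, 132 and 150 CPM in KO, against 129, 152 and 184 CPM in Ctrl. Its log2 difference of -0.18 was not called (edgeR adjusted p = 0.116). Its relative Tomm40l, a second channel isoform, had 81.8, 87.4 and 109 CPM in KO, against 98.1, 106 and 108 CPM in Ctrl. Tomm40l was called lower (-0.21, edgeR adjusted p = 0.0181), with KO replicate 3 above every Ctrl library, and lost the call without KO replicate 4 (adjusted p = 0.0538). It shares 26.4% of its exonic length with Nr1i3 on the other strand, which averaged 1.35 CPM. The strand setting is not given, and reads counted without regard to strand cannot be told apart there. The small subunits Tomm5, Tomm6 and Tomm7, which stabilise the pore, had log2 differences of -0.14, -0.16 and -0.09 and were not called.

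Tomm34 is the exception among the Tomm genes, both in place and in direction. Its product is a cytosolic cochaperone that binds Hsp70 and Hsp90 and holds precursors in a form fit for import. It had 30.1, 34.2 and 40.9 CPM in KO, against 22.6, 25.3 and 26.7 CPM in Ctrl. The groups did not overlap, and the log2 fold change was 0.46 (SE 0.0745, edgeR adjusted p = 0.000189), or 1.38-fold higher. Its value lay between 0.42 and 0.49 without each single library, and in the 4 libraries numbered 7 to 10 in the labels it was 0.45 with an adjusted p of 0.0677.

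Of the 11 Timm genes, 4 (36.4%) were called lower and none higher, beside 13.7% lower and 14.5% higher over all tested genes. The largest difference was at Timm44 (chr8:4259731-4275905, minus strand), the scaffold that ties mortalin to the exit of the TIM23 channel. It had 75.0, 89.2 and 106 CPM in KO, against 117, 125 and 142 CPM in Ctrl. Every KO library was below every Ctrl library, with a log2 fold change of -0.48 (SE 0.0752, edgeR adjusted p = 0.000146), a level 28.3% lower. Its call was kept under each of 22 alternatives.

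The TIM23 channel is formed by Timm23 with Timm17a or Timm17b, and Timm50 is its receptor on the side of the intermembrane space. Timm23 had 38.6, 45.8 and 58.8 CPM in KO, against 52.1, 58.7 and 67.0 CPM in Ctrl. It was called lower (-0.31, edgeR adjusted p = 0.0134), with 6 of 7 KO libraries below the Ctrl median. Timm17a had 219.5, 254 and 289.7 CPM in KO, against 250.4, 298 and 341 CPM in Ctrl, a log2 difference of -0.21 (edgeR adjusted p = 0.0369). That call was lost without any 1 of 9 libraries (KO replicates 1, 4, 5 and 6, Ctrl replicates 1, 2, 3, 6 and 7), with an adjusted p of up to 0.0812. Timm17b, the second form, had 28.6, 36.1 and 39.8 CPM in KO, against 30.7, 35.3 and 39.0 CPM in Ctrl and was not called (-0.05, edgeR adjusted p = 0.723). Timm50 was also not called (-0.13), and neither was Timm22, the carrier translocase (-0.22, edgeR adjusted p = 0.0644).

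The small TIM chaperones escort hydrophobic precursors across the intermembrane space, and only Timm8b among 5 (20%) was called. Over all tested genes 28.2% were called in either direction. Timm8b (chr9:50603901-50605320, plus strand) had 42.9, 56.1 and 88.8 CPM in KO, against 60.1, 84.4 and 92.5 CPM in Ctrl. Its libraries were widely spread, with 6 of 7 in KO below the Ctrl median, and the log2 fold change was -0.45 (SE 0.140, edgeR adjusted p = 0.0239). Without KO replicate 4 the adjusted p was 0.0547. In the libraries numbered 7 to 10 the log2 fold change of Timm8b was -0.74 (edgeR adjusted p = 0.0115). In the other 10 it was -0.37 and not called (edgeR adjusted p = 0.0518), though the difference between these sets of libraries was not called either. Timm8b shares 30.7% of its exonic length with AU019823 on the other strand, which averaged 10.05 CPM and was not called. Timm8a1 had 3.84, 4.45 and 5.54 CPM in KO, against 3.07, 3.57 and 4.84 CPM in Ctrl, the lowest level in the set, and was not called (0.23, edgeR adjusted p = 0.288). Timm9, Timm10 and Timm13 had log2 differences of -0.08, 0.05 and 0.06 and were not called, and the sign of Timm10 turned without KO replicate 7 (-0.05) or Ctrl replicate 2 (-0.01).

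**Figure D2:**
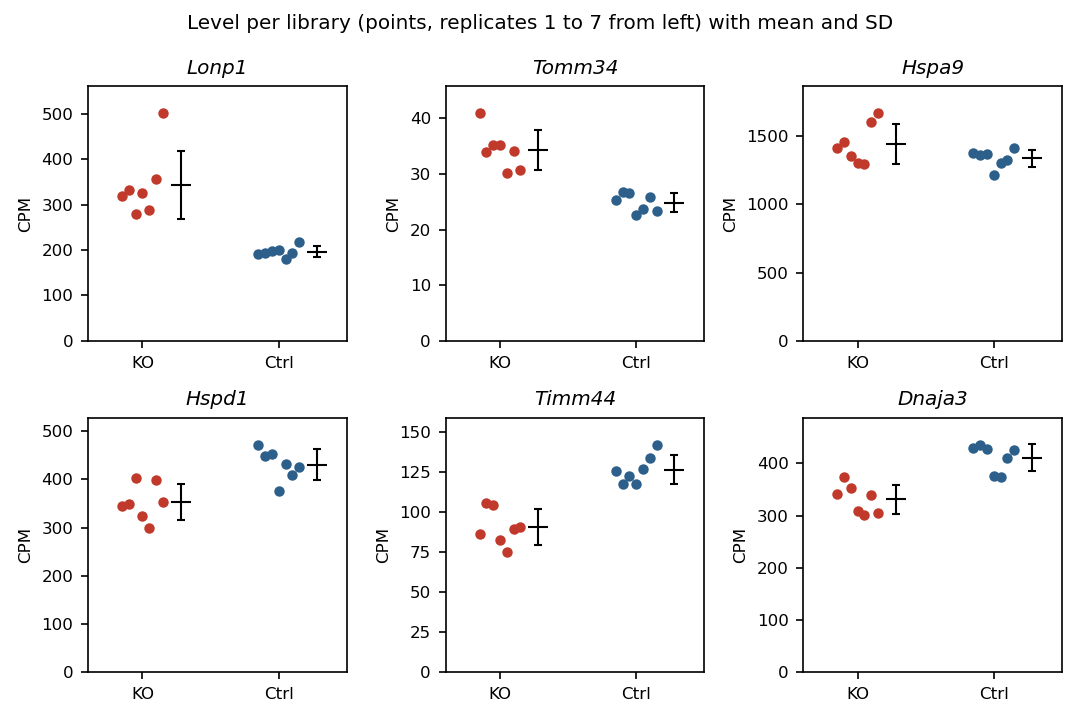
Level in every library (CPM, linear axes from 0, points are replicates 1 to 7 from the left, bars are mean ± SD, n = 7 per group) of 6 genes, KO left of Ctrl. Lonp1 and Tomm34 in KO lie above all Ctrl libraries, Timm44 and Dnaja3 in KO lie below all of them, and the groups overlap for Hspa9 and Hspd1.

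Of 7 matrix chaperones and cofactors, none was called higher and 3 (42.9%) were called lower, beside 14.5% and 13.7% of all tested genes. Hspa9 encodes mortalin, the mitochondrial Hsp70 that powers the import motor, and had 1293, 1412 and 1665 CPM in KO, against 1212, 1359 and 1409 CPM in Ctrl. The groups overlapped, with 4 of 7 KO libraries above the Ctrl median. Its log2 difference of 0.11 had a 95% interval of -0.03 to 0.25 (edgeR adjusted p = 0.227). With plain library totals the difference was 0.24 and was called (edgeR adjusted p = 0.00154).

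Among the members that serve as cofactors of mortalin, Grpel1 and Dnaja3 were called lower and Grpel2 was not called. Grpel1, its nucleotide exchange factor, had 157, 188 and 215 CPM in KO, against 211, 231 and 255 CPM in Ctrl, and was called lower (-0.32, SE 0.0707, edgeR adjusted p = 0.00239). The groups overlapped only at the highest KO and the lowest Ctrl libraries. Grpel2, the second exchange factor, had 22.5, 27.9 and 30.9 CPM in KO, against 26.1, 32.1 and 34.9 CPM in Ctrl and was not called (-0.16, edgeR adjusted p = 0.177). Dnaja3, the J-domain partner also known as Tid1 (chr16:4684070-4707693, plus strand), had 301, 338 and 373.5 CPM in KO, against 374.2, 425 and 435 CPM in Ctrl. The highest KO library was just under the lowest Ctrl library, and the log2 fold change was -0.31 (SE 0.0606, edgeR adjusted p = 0.000987).

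The chaperonin is a barrel of Hspd1 (Hsp60) with a lid of Hspe1 (Hsp10), and both are usual readouts of the mitochondrial unfolded protein response. Hspd1 (chr1:55077834-55087932, minus strand) had 299, 349 and 402 CPM in KO, against 375, 433 and 471.5 CPM in Ctrl. All 7 KO libraries were below the Ctrl median, and the log2 fold change was -0.29 (SE 0.0703, edgeR adjusted p = 0.00559). Hspe1 had 62.5, 77.2 and 100.1 CPM in KO, against 66.9, 87.7 and 97.0 CPM in Ctrl, a log2 difference of -0.07 with a 95% interval of -0.29 to 0.15 (edgeR adjusted p = 0.664). Trap1, the mitochondrial Hsp90, had 287, 317.5 and 348.5 CPM in KO, against 289, 327 and 361 CPM in Ctrl, with a log2 difference of -0.05 and an interval of -0.18 to 0.08 (edgeR adjusted p = 0.603). The annotation of the count table names 5 pseudogenes of Hspd1, 6 of Hspe1 and 1 of Hspa9, so these counts are uncertain to the extent that reads were split.

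Both subunits of the presequence peptidase, which cuts targeting sequences in the matrix, were called lower, beside 13.7% of all tested genes. Pmpcb, the catalytic subunit, had 201, 237 and 245 CPM in KO, against 250.1, 276 and 319.9 CPM in Ctrl, and its groups did not overlap (-0.27, SE 0.0625, edgeR adjusted p = 0.00337). Pmpca, the substrate-binding subunit, averaged 195 ± 16.3 CPM in KO and 225 ± 11.9 CPM in Ctrl (SD, n = 7 each) and was lower by less (-0.21, edgeR adjusted p = 0.0121). Pmpca shares 27.9% of its exonic length with Inpp5e on the other strand, which was itself called lower (-0.27).

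Lonp1, the ATP-dependent protease that clears damaged proteins from the matrix (chr17:56614298-56626903, minus strand), had the largest difference in the set. It had 278, 325 and 501 CPM in KO, against 180, 194 and 218 CPM in Ctrl. Every KO library was above every Ctrl library, and KO replicate 7 was far above the other 6. The log2 fold change was 0.80 (SE 0.105, edgeR adjusted p = 2.69e-05), or 1.74-fold. Without KO replicate 7 it was 0.69 (adjusted p = 1.24e-06), in the 10 libraries outside numbers 7 to 10 it was 0.85, and in those 4 libraries 0.64.

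Neither part of the other matrix protease, ClpXP, was called. Clpp, its peptidase, had 64.7, 77.5 and 99.7 CPM in KO, against 83.02, 91.8 and 106 CPM in Ctrl, a log2 difference of -0.24 that was not called (edgeR adjusted p = 0.0738). Clpx, its unfoldase, had 187, 199 and 237 CPM in KO, against 202, 223 and 252 CPM in Ctrl and was not called either (-0.16, edgeR adjusted p = 0.103).

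In the inner membrane, 2 of 3 subunits of the m-AAA protease, which degrades membrane proteins from the matrix side, were called lower. Over all tested genes the share called lower was 13.7%. Spg7 (paraplegin, chr8:123065508-123097751, plus strand) had 114, 130.0 and 145 CPM in KO, against 144, 177 and 187 CPM in Ctrl, with a log2 fold change of -0.36 (SE 0.0737, edgeR adjusted p = 0.00144). Afg3l2 had 234, 290.0 and 310 CPM in KO, against 294, 332 and 347 CPM in Ctrl, lower in all 7 KO libraries than the Ctrl median (-0.22, edgeR adjusted p = 0.0211). Afg3l1 had 91.5, 101 and 110.5 CPM in KO, against 91.9, 108 and 112 CPM in Ctrl and was not called (-0.05, edgeR adjusted p = 0.591).

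The remaining proteases were not called. Yme1l1, the i-AAA protease that faces the intermembrane space, had 79.98, 84.4 and 100.4 CPM in KO, against 73.9, 78.3 and 96.8 CPM in Ctrl, and all 7 KO libraries were above the Ctrl median (0.11, edgeR adjusted p = 0.279). Oma1, the stress-activated peptidase that cuts OPA1, had 49.5, 62.0 and 65.4 CPM in KO, against 56.1, 66.1 and 71.1 CPM in Ctrl (-0.14, edgeR adjusted p = 0.221). Htra2, a serine protease of the intermembrane space, had 14.98, 17.2 and 20.3 CPM in KO, against 16.7, 18.6 and 21.2 CPM in Ctrl (-0.15, edgeR adjusted p = 0.244).

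Both prohibitins, which form ring-shaped scaffolds around the m-AAA protease, were called lower, beside 13.7% of all tested genes. Phb (chr11:95666957-95680773, plus strand) had 139.7, 171 and 197 CPM in KO, against 179, 200.5 and 221.5 CPM in Ctrl (-0.25, edgeR adjusted p = 0.0171). Phb2 had 242, 276 and 321 CPM in KO, against 273, 319 and 366 CPM in Ctrl (-0.22, edgeR adjusted p = 0.0286). The Phb2 call was lost without any 1 of KO replicates 1, 4 and 5 and Ctrl replicates 1 and 7, with an adjusted p of up to 0.0682.

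**Figure D3:**
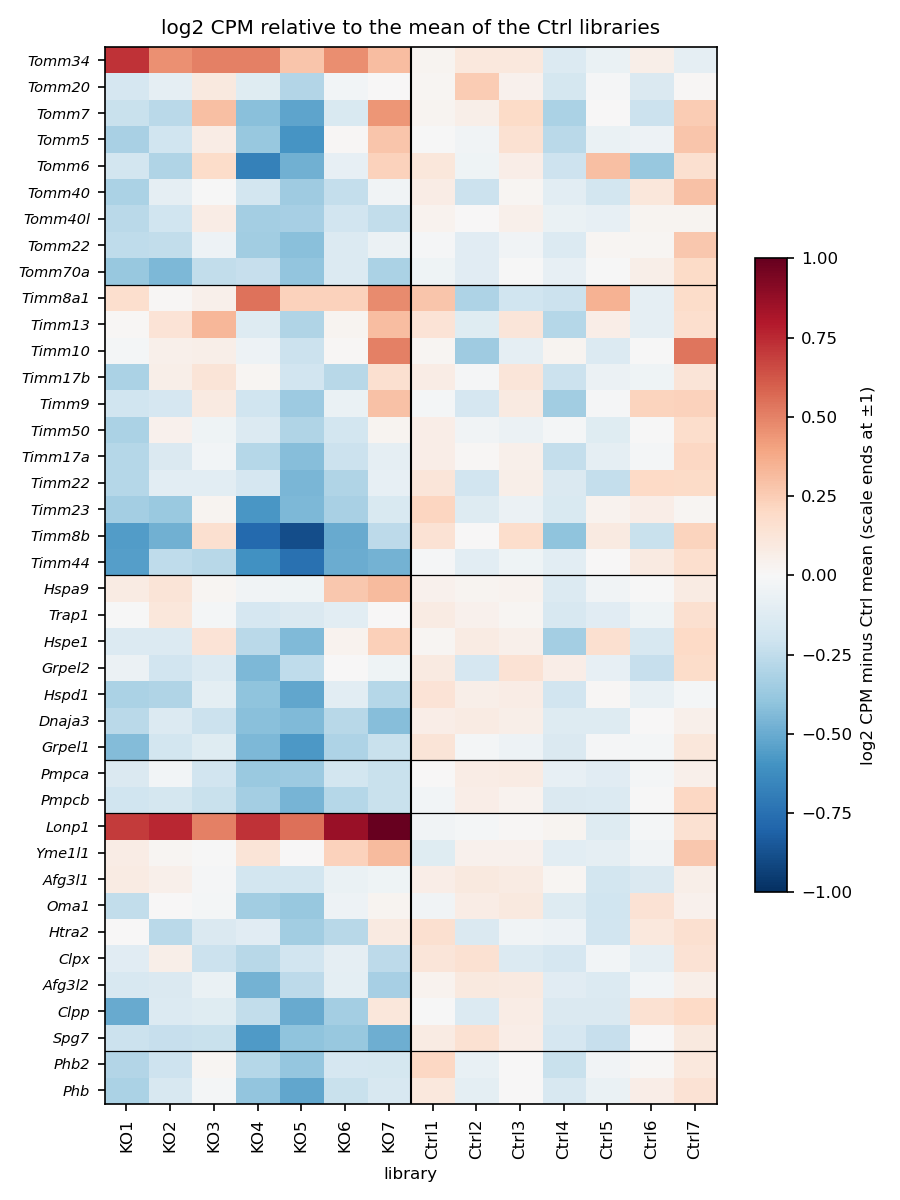
Log2 CPM of each gene in each library relative to the mean of the 7 Ctrl libraries, KO columns left of Ctrl columns, genes by role, with colours ending at ±1. The rows of Lonp1 and Tomm34 are red in all 7 KO libraries, and KO replicates 4 and 5 are the bluest columns for Timm44 and Timm8b.

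By place in the organelle, the outer membrane had 0 higher and 3 lower of 8, the inner membrane 0 and 6 of 12, and the matrix 1 and 6 of 13, beside 14.5% higher and 13.7% lower over all tested genes. The intermembrane space had 0 higher and 1 lower of 6 (16.7%, near the share over all genes), with a median log2 fold change of -0.02, beside -0.21 for the inner membrane and -0.21 for the matrix. These medians are descriptions of small groups, and their differences were not tested.

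Levels were also compared between genes as CPM per kb of exonic length. Hspa9 was the most abundant at 474 ± 47.7 CPM per kb in KO and 439 ± 21.3 in Ctrl (SD, n = 7 each), followed by Timm17a at 279 in KO and 323 in Ctrl and by Phb2 at 202 in KO and 234 in Ctrl. Hspd1 and Pmpcb came next at 151 ± 15.97 and 144 ± 9.81 CPM per kb in KO, and 185 ± 13.6 and 174 ± 14.9 in Ctrl, and did not differ from each other beyond their spread. Lonp1 stood at 116 ± 25.2 CPM per kb in KO and 66.3 ± 3.92 in Ctrl, which put it at rank 8 of 40 in KO and rank 24 in Ctrl. Timm8a1 was lowest in both groups, with 3.84 CPM per kb in KO and 3.26 in Ctrl.

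**Figure D4:**
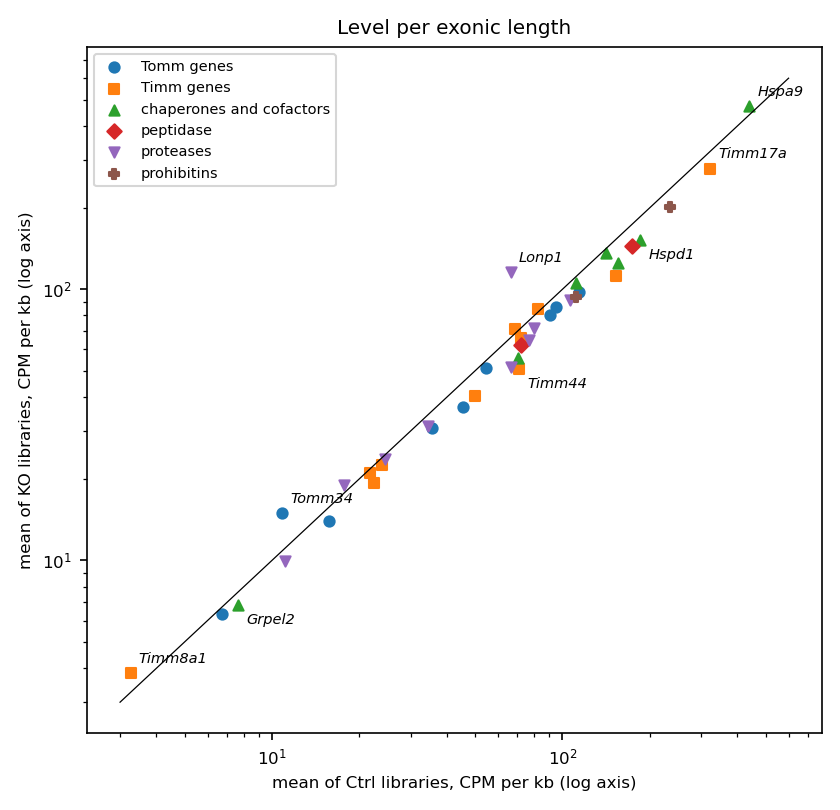
Mean level of each gene per kb of exonic length in KO (vertical, CPM per kb, log axis) against Ctrl (horizontal, same unit, log axis), with the line of equal level. Lonp1 (116 in KO, 66.3 in Ctrl) and Tomm34 lie above the line, and most others lie on it or slightly below.

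Partner genes were set against each other within each library, as the log2 ratio of their counts, which library scaling does not touch. Of 6 pairs, 4 differed between the groups by a two-sided exact permutation test with Benjamini-Hochberg adjustment over the 6. The log2 ratio of Timm8a1 to Timm8b was -4.45 (lowest), -3.61 (median) and -3.03 (highest) in KO, against -4.69, -4.23 and -4.09 in Ctrl, a difference of 0.70 (exact p = 0.00466, adjusted p = 0.0268). The log2 ratio of Hspe1 to Hspd1, the lid to the barrel, was -2.26, -2.18 and -1.81 in KO, against -2.49, -2.37 and -2.13 in Ctrl, a difference of 0.21 (exact p = 0.0134, adjusted p = 0.0268). These genes share the stretch of promoter printed above, and the ratio, unlike each level, compares them within a library. Afg3l1 rose relative to Afg3l2 by 0.17 (exact p = 0.00991, adjusted p = 0.0268), with KO ratios of -1.60 to -1.35 and Ctrl ratios of -1.76 to -1.50. Timm17a fell relative to Timm17b (difference -0.15, exact p = 0.0233, adjusted p = 0.035), with KO ratios of 2.74 to 3.10 and Ctrl ratios of 2.97 to 3.12. In all 4 pairs the groups overlapped. The ratio of Grpel2 to Grpel1 (difference 0.17, exact p = 0.0886, adjusted p = 0.106) and that of Tomm40l to Tomm40 (-0.04, exact p = 0.584, adjusted p = 0.584) did not pass.

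Leaving out single libraries ended several of these pair results. Without KO replicate 7 the adjusted p was 0.0524 for Timm8a1 to Timm8b, 0.0524 for Afg3l1 to Afg3l2, 0.0536 for Hspe1 to Hspd1 and 0.0708 for Timm17a to Timm17b. Afg3l1 to Afg3l2 was also lost without Ctrl replicate 6 (0.0559), and Hspe1 to Hspd1 without Ctrl replicates 1 (0.0533), 2 (0.0513) or 6 (0.0559). Timm17a to Timm17b was lost without any 1 of KO replicates 2, 3, 4, 5 and 7 or Ctrl replicates 1, 2, 6 and 7, with an adjusted p of up to 0.0717.

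**Figure D5:**
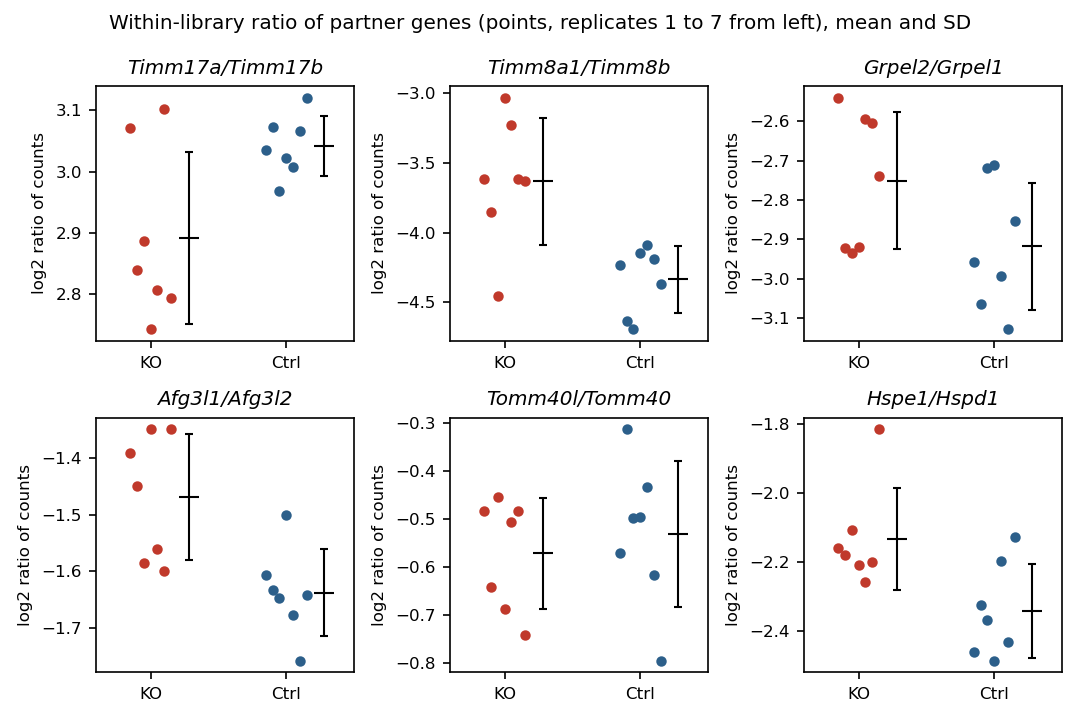
Log2 ratio of the counts of 2 partner genes in each library (points, replicates 1 to 7 from the left, with mean ± SD), KO left of Ctrl. The ratio of Timm8a1 to Timm8b is 0.70 higher in KO on average, that of Hspe1 to Hspd1 is 0.21 higher, and the groups overlap in every panel.

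Related genes were taken from lists chosen beside the 40. Of 20 other genes for import and processing, 7 were called lower and none higher, with a median log2 fold change of -0.20, where 13.7% of all tested genes were called lower and 14.5% higher. With plain library totals, where 7.63% of all genes were lower, 4 of the 20 were, at a median of -0.07. The 7 called lower with TMM included Mtch2 (an outer membrane insertase, -0.38), Oxa1l (the inner membrane insertase, -0.30), Mipep (the intermediate peptidase, -0.28) and Immp1l (an inner membrane peptidase, -0.40). The rest of the 7 were Dnajc15 and Dnajc19 (J proteins of the import motor, -0.37 and -0.40) and Samm50 (the outer membrane sorting channel, -0.19). Of 11 other genes for folding and quality control, 5 were lower (Stoml2, Immt, Parl, Bcs1l and Lactb, at -0.39 to -0.27) and Dnlz, the escort protein of mortalin, was higher at 0.28. With plain library totals 3 of these 11 were lower and 2 higher. Samm50 lost its call without any 1 of KO replicates 1, 2, 4, 5 and 6 or Ctrl replicates 1, 2, 3, 6 and 7 (adjusted p up to 0.112). Dnlz lost it without KO replicates 6 or 7 or Ctrl replicates 2, 4, 5, 6 or 7 (up to 0.0781), Lactb without KO replicates 4, 5 or 6 or Ctrl replicates 3 or 7 (up to 0.0698), and Bcs1l without KO replicates 4 or 6 or Ctrl replicate 7 (up to 0.0599). The difference between these lists and the 40 members was not tested.

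Genes for large assemblies built from imported proteins were mostly lower. Of 77 tested nuclear subunits of the respiratory chain, 60 were called lower and 1 higher (Cox8a, 0.45), with a median of -0.42, and Sdha, the flavoprotein of complex II, was at -0.53 (edgeR adjusted p = 1.05e-05). Of 76 mitochondrial ribosomal proteins, 43 were called lower and none higher, with a median of -0.27, beside 13.7% lower over all tested genes. Set against the median of all tested genes, the members lay -0.18 away with TMM, the ribosomal proteins -0.28 and the respiratory subunits -0.43, and with plain library totals these distances were -0.18, -0.29 and -0.44. The differences between the lists were not tested.

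Regulators of the response were mixed with effectors. Of 16 tested genes known as regulators or effectors of the mitochondrial unfolded protein response, 5 were called higher and 6 lower, beside 14.5% and 13.7% over all tested genes. Atf5, a transcription factor of the response in mammals, had 12.7, 16.1 and 32.0 CPM in KO, against 1.69, 2.36 and 3.57 CPM in Ctrl, a log2 fold change of 2.88 (SE 0.224, edgeR adjusted p = 1.09e-07) with no overlap. Gdf15, a secreted stress signal, had 5.96, 15.5 and 20.8 CPM in KO, against 0.393, 0.863 and 1.56 CPM in Ctrl (3.91, edgeR adjusted p = 6.21e-07). Fgf21, a second secreted signal, had 552 counts over the KO libraries and 0 over the Ctrl libraries, which makes KO at least 175-fold higher when the Ctrl group as a whole is set at 3 counts.

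Atf4 and Ddit3 (CHOP) were called higher by less. Atf4, the transcription factor of the integrated stress response, had 64.9, 86.0 and 162 CPM in KO, against 53.2, 61.9 and 85.1 CPM in Ctrl (0.61, edgeR adjusted p = 0.0101). In the libraries numbered 7 to 10 its log2 difference was -0.12 (adjusted p = 0.662), and in the other 10 it was 0.88 (adjusted p = 0.00101). Ddit3 had 17.7, 19.8 and 48.6 CPM in KO, against 12.3, 16.4 and 20.02 CPM in Ctrl (0.59, edgeR adjusted p = 0.0379). Its call was lost without KO replicate 2 (0.0555) and without Ctrl replicates 1 (0.0835), 2 (0.0597), 4 (0.0505), 6 (0.0626) or 7 (0.0643), and without KO replicate 7 the difference was 0.32 with the call kept (0.0427). In the libraries numbered 7 to 10 it was 0.11 (adjusted p = 0.734), and in the other 10 it was 0.76 (adjusted p = 0.0369). Cebpb, a partner of both, was not called (0.18, edgeR adjusted p = 0.70). In all, 5 of the 16 were not called: Cebpb, Hsf1 (-0.14), Nrf1 (-0.18), Ubl5 (-0.10) and Eif2ak1 (0.05).

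The 6 genes called lower in that list were mitochondrial effectors. Sod2, the matrix superoxide dismutase, had 693, 798 and 873 CPM in KO, against 937, 1099 and 1166 CPM in Ctrl, with no overlap (-0.43, edgeR adjusted p = 9.07e-05). Sirt3, the matrix deacetylase, had 54.0, 61.4 and 76.2 CPM in KO, against 81.1, 86.7 and 95.6 CPM in Ctrl, also with no overlap (-0.48, edgeR adjusted p = 0.000229). Abcb10, an inner membrane transporter, had 77.4, 87.2 and 94.3 CPM in KO, against 99.2, 114.7 and 132 CPM in Ctrl (-0.41). Endog, a mitochondrial nuclease, was at -0.37, and Prdx3 and Txn2, which remove peroxide in the matrix, were at -0.29 and -0.22, the last losing its call without KO replicate 4 (adjusted p = 0.059).

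Chaperones of the same families outside mitochondria were set beside them. Of 15 tested cytosolic and endoplasmic reticulum counterparts, 2 (13.3%) were called higher, near the 14.5% of all tested genes, none was called lower, and the median log2 fold change was 0.04. Hsp90aa1, the inducible cytosolic Hsp90, had 64.1, 101 and 117 CPM in KO, against 47.6, 59.9 and 72.2 CPM in Ctrl (0.72, edgeR adjusted p = 0.000274), and Cct5, a subunit of the cytosolic chaperonin, was at 0.19 (edgeR adjusted p = 0.0261) and lost its call without KO replicates 6 or 7 or Ctrl replicates 3 or 4 (up to 0.0594). Hspa5, the Hsp70 of the endoplasmic reticulum, had 1461, 1585 and 2021 CPM in KO, against 1420, 1570 and 1747 CPM in Ctrl and was not called (0.07, edgeR adjusted p = 0.529). Hspa8, Hsp90b1 and Hsp90ab1 had log2 differences of -0.0014, 0.03 and 0.11 and were not called. With plain library totals 8 of the 15 were called higher, where 27.4% of all tested genes were.

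Taking the usual readouts of the response side by side, Lonp1 was called higher, Hspd1 and Dnaja3 were called lower, and Hspe1, Hspa9, Clpp, Clpx, Trap1, Yme1l1 and Htra2 were not called. Without each single library in turn, 13 of the 18 called members kept their call, and all 18 kept their sign in all 22 alternatives. Timm44, Hspd1, Dnaja3, Grpel1 and Lonp1 were called in every one of them. Among the 10 libraries outside numbers 7 to 10, 2 members were called higher and 13 lower, against backgrounds of 12.5% and 11.6%, and among the other 4 libraries 1 was higher and 8 lower, against 5.84% and 6.59%. A test of whether the KO effect differed between these sets of libraries called 0 of 11170 genes (edgeR quasi-likelihood interaction), with 339 genes and 1 member, Tomm6, at an unadjusted p under 0.05. In the authors' deposited table, 2 members were higher and 16 lower at an adjusted p under 0.05, against backgrounds of 12.4% and 12%.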

How the data were processed

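Whole-number read counts per gene were deposited by the authors without normalization. STAR, featureCounts, DESeq2, DESeq and mm10 are named in the submitters' processing notes; the sources used here give no versions, annotation or strand setting. The authors' deposited comparison, used only where it is named, holds a mean signal (counts divided by size factors), log2 fold changes, a Wald score and p-values, per the file headers.

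Counts were fitted with edgeR 4.0.16 (R 4.3.3): filterByExpr, TMM scaling, quasi-likelihood test, two-sided, Benjamini-Hochberg adjustment over 11170 genes, no covariates. CPM used TMM-scaled totals, and pair ratios used log2 of count plus 1. Each SE was the absolute log2 fold change divided by the square root of the F statistic, and the 95% intervals were built from it. Alternatives were RLE scaling, DESeq2 1.42.0, no filter, a replicate block, a term for libraries 7 to 10 (which an earlier reading of these data set apart; the labels name no batch), each set alone, each library left out and, added after the data were seen, library totals. Scripts were tested on simulated data. Chi-square per degree of freedom between replicates was 4.58 to 26.9 over 42 pairs, more than counting error alone gives. No library was therefore a second sequencing of another replicate. Whether libraries were prepared from the same RNA or animal cannot be told from this. Reads carry no molecular identifiers, so the Fgf21 bound covers counting error only. The biological coefficient of variation was 16.2%.

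Values in every library were planned for the 10 called members with the largest change, 17 members named in advance and the pair genes; other lists gave named genes and up to 3 with the smallest p. Members and lists were chosen with earlier results of these data known. Emr1 is the table's symbol for Adgre1; Maip1 and Dele1 were not analysed here, and 1 listed gene is not reported here. 0 columns were unmapped and 0 rows lacked a gene name.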

Additional observations from a re-analysis of the deposited data

Results flagged for a closer look

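In 10 of 120 groups of 7 libraries checked, 1 library stood apart from the rest by Dixon's criterion, where chance gives about 1 in 20 groups, or 6. Lonp1 was 501 CPM in KO replicate 7, against 278 to 357 in the other KO libraries. In the same library Timm10 was 76.5 CPM (others 46.5 to 56.1), Atf4 was 162 CPM (64.9 to 107), Ddit3 was 48.6 CPM (17.7 to 25.0) and the log2 ratio of Hspe1 to Hspd1 was -1.81 (-2.26 to -2.11). Ctrl replicate 7 stood apart for Timm10 at 78.0 CPM (42.2 to 55.0), Tomm22 at 139.7 CPM (105.5 to 117) and Yme1l1 at 96.8 CPM (73.9 to 82.95). Tomm40l was 109 CPM in KO replicate 3 (81.8 to 91.1), and Hsp90aa1 was 64.1 CPM in KO replicate 2, below the 98.8 to 117 CPM of the other KO libraries. The cause was not tested.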

How the results depend on the processing

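The test of a differing KO effect between library sets also called 0 genes with RLE scaling and with no filter. Counts of calls kept within 1.5 times under RLE scaling, DESeq2, no filter, the index term, the other 10 libraries and each library left out. Of member fold changes under alternatives, 806 kept direction and side of the threshold, 49 lost the call, 12 gained it and 13 changed sign. In libraries 7 to 10 alone, with 2 per group, 689 genes were higher and 777 lower, with 1 member higher and 8 lower. With library totals 3064 genes were higher and 852 lower, with 4 members higher and 8 lower.

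Signs turned in libraries 7 to 10 for Timm13 (-0.16), Timm10 (-0.12), Timm17b (0.0071), Atf4 (-0.12), Cebpb (-0.24) and Hsp90b1 (-0.013). With library totals they turned for Timm17b (0.084), Timm9 (0.052), Timm50 (0.0072), Tomm20 (0.045), Tomm7 (0.041), Trap1 (0.085), Hspe1 (0.059), Afg3l1 (0.080) and Hspa8 (0.13). Without 1 library they turned for Timm10 (range -0.0457 to 0.148, with -0.0088 without Ctrl replicate 2), Hsp90b1 (-0.0034 to 0.054) and Hspa8 (-0.058 to 0.061), and for Hspa8 also with no filter (0.0034). None of these alternative values was called.

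Pair differences in the other 10 libraries were -0.11 for Timm17a to Timm17b (adjusted p = 0.152), 0.59 for Timm8a1 to Timm8b (0.0635) and 0.25 for Hspe1 to Hspd1 (0.0635), by exact permutation. Without 1 library the differences ran from -0.186 to -0.125 for Timm17a to Timm17b, 0.604 to 0.841 for Timm8a1 to Timm8b, 0.149 to 0.192 for Afg3l1 to Afg3l2 and 0.156 to 0.244 for Hspe1 to Hspd1. Under a replicate block, a sign-flip test over 7 pairs, Timm17a to Timm17b was -0.15 (exact adjusted p = 0.0938). Hspe1 to Hspd1 was 0.21 (exact adjusted p = 0.0625). In the edgeR fit with that block, 2 members were higher and 19 lower, and the share over all genes is not given here. The median log2 fold change in that fit was -0.17 for the members and 0.01 for all tested genes. Same-numbered libraries correlated at 0.061 to 0.53 and 2 of 7 matched best with their own number, so the numbers were not taken as pairs. The causes of these changes were not tested.

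With 7 libraries per group, small differences such as those of Hspe1 (-0.07, SE 0.104) and Trap1 (-0.05, SE 0.0602) could not be told from 0. Overlapping genes and pseudogenes limit Tomm40l, Timm8b, Pmpca, Hspd1, Hspe1 and Hspa9. Tomm6 and Htra2 also share 43.5% and 31.0% of their exonic length with genes on the other strand, which averaged 0.336 and 1.01 CPM. Smaller shares, up to 13.7%, were at Timm9, Grpel1, Timm13 and Trap1.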
